A study of Mus musculus with 8 samples.

Results

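NF-kB is a family of transcription factors that cells use to answer cytokines, microbial products and stress. The 10 genes described here are the 5 genes that encode its subunits (Rela, Relb, Rel, Nfkb1 and Nfkb2) and 5 genes that NF-kB itself switches on, most of which feed back on it (Nfkbia, Nfkbiz, Tnfaip3, Bcl3 and Il1b). They were chosen by gene symbol, and all 10 were found among the 15142 genes present in each of the 3 expression tables. In resting cells NF-kB dimers are held in the cytoplasm by IkB proteins, and the IKK kinase complex releases them by marking IkB for destruction. The freed dimers then induce their own inhibitors, so that levels of Nfkbia and Tnfaip3 mRNA are widely read as a trace of recent NF-kB activity. In the blood system the pathway is known for inflammatory signaling in myeloid and lymphoid cells and for a role in the maintenance of hematopoietic stem cells (HSCs).

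The data were bulk RNA-seq libraries of HSCs sorted from wild-type C57BL/6 mice of 8 to 12 weeks of age. Phenylhydrazine (PHZ) lyses red blood cells, and PHZ-treated mice received intraperitoneal injections of 60 mg/kg on 2 days and were taken 3 days after the last of them. HSCs came from the bone marrow of control mice, which the labels list as given PBS and the study's text calls untreated (control BM HSC, 3 libraries), and from the bone marrow (PHZ BM HSC, 3 libraries) and spleen (PHZ SP HSC, 2 libraries) of PHZ-treated mice. The sort gate was lineage-negative, Sca-1+, c-kit+, CD150+ and CD48-/low, with the antibodies Ter119, B220, Gr-1, CD2, CD3 and CD8 against mature lineages, and marrow was first enriched for c-kit+ cells. Both sexes were used in the study, and the labels do not say whether libraries came from separate or pooled mice, so p-values measure only the spread between these libraries. Control spleens were not analysed here, so where the spleen is set against control BM HSC the tissue and the treatment cannot be told apart from these groups alone.

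Libraries held 8219964 to 13206522 reads, of which the ribosomal RNA precursor Rn45s took 43.3% to 48.6%. The summed level of 16 HSC markers was alike in the groups, at 600.5 to 730.6 FPKM (depth-scaled fragments per kilobase of a gene) in control BM HSC, 692.1 to 816.3 in PHZ BM HSC and 751.9 to 752.7 in PHZ SP HSC. Kit ranged from 83.8 to 150.5 FPKM and Ly6a, which encodes Sca-1, from 85.9 to 235.0 FPKM over the 8 libraries. Cd48, whose protein the gate keeps low, was at 0 to 3.39 FPKM in the marrow libraries and at 7.09 and 8.19 FPKM in the spleen libraries.

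Nfkbia, which encodes the inhibitor IkB-alpha, was the most abundant of the 10 mRNAs in each group. In control BM HSC its mean level was 62.96 ± 8.22 FPKM (SD, n = 3). Rela and Nfkb1, the subunits of the classical p65-p50 dimer, came next at 14.4 ± 6.13 and 14.2 ± 1.82 FPKM, and their ranges overlapped. Nfkb2, Nfkbiz, Rel, Bcl3, Relb and Tnfaip3 followed at means of 3.29 down to 1.96 FPKM, and each overlapped its neighbor in that order. Il1b was last, at a mean of 0.0818 FPKM. In PHZ BM HSC Nfkbia, Rela, Nfkb1 and Nfkbiz stood in this order with no overlap between neighbors, and Nfkbiz had moved from within the low group to 8.34 ± 1.11 FPKM. In PHZ SP HSC the same 4 genes led, and the ranges of Nfkbiz, Relb and Nfkb2 overlapped.

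**Figure D1:**
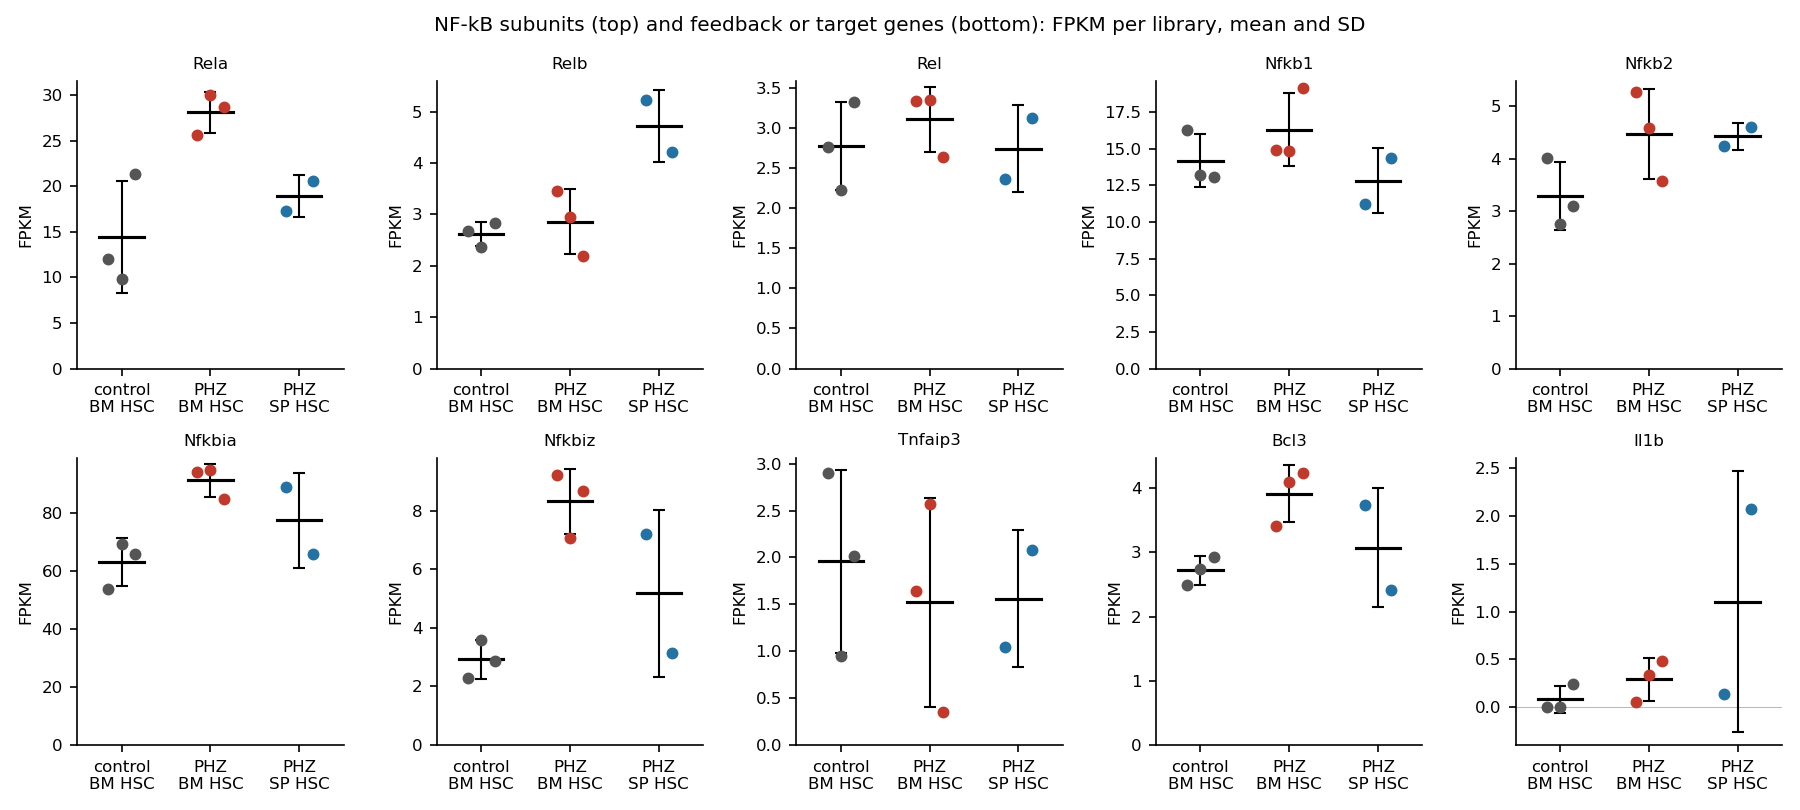
Level (FPKM, linear scale) of the 5 NF-kB subunit genes in the top row and the 5 feedback or target genes in the bottom row. Points are libraries of control BM HSC (gray, 3), PHZ BM HSC (red, 3) and PHZ SP HSC (blue, 2), the horizontal bar is the mean and the error bar is 1 SD. All 3 PHZ BM HSC libraries lie above all 3 control libraries for Rela, Nfkbia, Nfkbiz and Bcl3.

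The first comparison asks how marrow HSCs of anemic mice differ from those of control mice. Of the 9 genes of the family that reached 1 FPKM in at least 2 libraries and were tested, Nfkbiz was higher in PHZ BM HSC and no other member passed the threshold, an adjusted p below 0.05 by limma on log2(FPKM + 1) with adjustment over all 11351 genes tested. Over all genes tested 2.74% passed it in this comparison. At an unadjusted p below 0.05 stood 3 of the 9 members, Rela, Nfkbia and Nfkbiz, all higher in PHZ BM HSC, beside 16.6% of all genes. In 4 of the 9, Rela, Nfkbia, Nfkbiz and Bcl3, every PHZ BM HSC library lay above every control library, beside 12.3% of all genes, and in 0 of the 9 every one lay below, beside 11.7%. The median log2 fold change was 0.35 over the 9 members and 0.01 over all genes tested, and 8 of the 9 were above 0. In bulk libraries a lower level in each cell and fewer cells that express a gene cannot be told apart.

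Among the subunits, Rela showed the largest difference. Rela encodes p65, which carries a transactivation domain, and lies at chr19:5637442-5648134 (RefSeq, build GRCm38, as are all coordinates here). Its level was 12.1, 9.79 and 21.4 FPKM in control replicates 1 to 3 and 25.6, 30.0 and 28.7 FPKM in PHZ BM HSC replicates 1 to 3. The control group was the uneven one, with replicate 3 well above the other controls, and the groups did not overlap. Its log2 fold change, 0.99 ± 0.25 (SE, 95% interval 0.44 to 1.53), missed the threshold at an adjusted p of 0.0641 by limma. Without control replicate 3 it was 1.29 with an adjusted p of 0.0153 by limma. With all libraries kept, it also passed (0.0442 by limma) when only genes at 1 FPKM or more in every library were tested. It missed the threshold in the other 15 of 17 alternatives, and over all 17 the log2 fold change ran from 0.77, without control replicate 2, to 1.29, and the adjusted p by limma from 0.0153 to 0.218, the latter without PHZ BM HSC replicate 2.

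The other subunits gave smaller values, none past the threshold. Nfkb1, the gene of the p105 precursor and its product p50 (chr3:135584655-135691969), was at 16.3, 13.2 and 13.1 FPKM in the control libraries and at 14.9, 14.8 and 19.2 FPKM in PHZ BM HSC. The groups overlapped, and the log2 fold change was 0.19 (95% interval -0.24 to 0.61). Nfkb2 encodes p100 and p52, the arm of the alternative pathway (chr19:46300994-46312400). It was at 4.01, 2.76 and 3.10 FPKM in the control libraries and at 5.28, 4.59 and 3.57 FPKM in PHZ BM HSC, with a log2 fold change of 0.35 (95% interval -0.15 to 0.86). The highest control lay above the lowest PHZ library. Rel, the gene of c-Rel (chr11:23736847-23770969), was at 2.76, 2.23 and 3.32 FPKM against 3.33, 3.35 and 2.64 FPKM, a log2 fold change of 0.13 (95% interval -0.39 to 0.65). Relb, the usual partner of p52 (chr7:19606217-19629438), was at 2.67, 2.37 and 2.83 FPKM against 3.45, 2.94 and 2.20 FPKM, a log2 fold change of 0.08 (95% interval -0.43 to 0.59). Both ranges overlapped, and intervals of this width leave room for changes of moderate size in either direction.

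The summed level of the 5 subunit genes was 30.4 to 43.7 FPKM in control BM HSC and 52.6 to 56.3 FPKM in PHZ BM HSC. Rela made up 31.9%, 32.2% and 48.9% of that sum in the control libraries and 48.7%, 53.9% and 51.0% in PHZ BM HSC. In control replicates 1 and 2 there was more Nfkb1 than Rela mRNA, with 0.741 Rela per Nfkb1 in each, whereas in control replicate 3 and all PHZ BM HSC libraries Rela exceeded Nfkb1, by a ratio of up to 2.02. These shares compare levels per length between mRNAs and say nothing of protein.

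The feedback genes held the member that changed. Nfkbiz encodes IkB-zeta, a nuclear IkB protein that acts as a cofactor for a subset of NF-kB target genes (chr16:55811375-55838954). It was at 2.29, 3.60 and 2.88 FPKM in the control libraries and at 9.23, 7.09 and 8.69 FPKM in PHZ BM HSC, from 112 to 185 and 333 to 562 reads. Every PHZ BM HSC library was above every control library. The log2 fold change was 1.26 ± 0.28 (SE, 95% interval 0.64 to 1.87), or 2.39-fold on the FPKM + 1 scale, with an adjusted p of 0.0368 by limma. The call was lost in 9 of 17 alternatives. Among them were leaving out any of the 6 marrow libraries (adjusted p of 0.0528 to 0.166 by limma, log2 fold change 1.14 to 1.38), using no filter on low values (0.083) and averaging PHZ BM HSC replicates 1 and 2 (0.128).

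Nfkbia (chr12:55489409-55492647) was at 53.7, 69.3 and 65.9 FPKM in the control libraries and at 94.0, 94.7 and 84.6 FPKM in PHZ BM HSC. The groups did not overlap, and the log2 fold change was 0.53 ± 0.16 (SE, 95% interval 0.19 to 0.88) with an unadjusted p of 0.0059 and an adjusted p of 0.107 by limma. Relative to the sum of the subunit mRNAs Nfkbia stood at 1.42, 2.28 and 1.51 in the control libraries and at 1.79, 1.70 and 1.504 in PHZ BM HSC, so that this ratio overlapped between the groups. Bcl3, another nuclear IkB protein, which binds p50 and p52 dimers (chr7:19808462-19822824), was at 2.49, 2.74 and 2.93 FPKM against 3.40, 4.10 and 4.23 FPKM. Its groups did not overlap either, and the log2 fold change of 0.40 (95% interval -0.11 to 0.91) had an adjusted p of 0.418 by limma.

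Tnfaip3 encodes A20, the ubiquitin-editing enzyme that shuts off signaling upstream of IKK (chr10:19000910-19015410). Its level was 2.90, 0.952 and 2.02 FPKM in the control libraries and 1.64, 2.57 and 0.354 FPKM in PHZ BM HSC, the latter from 124, 174 and 33 reads. It scattered within both groups, and the log2 fold change of -0.28 (95% interval -1.15 to 0.58) was below 0, unlike that of Nfkbia.

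Some of the promoters of these genes hold the letters of the kB site, the sequence that NF-kB dimers bind. Promoter sequences of RefSeq (GRCm38.p6) were available for 7 of the 10 genes (not for Relb, Nfkb1 and Nfkbiz), and the 250 bases before each annotated start were searched on both strands for the 10-letter kB consensus. Of the 7 genes, 4 held at least 1 match, Nfkbia, Tnfaip3, Rel and Nfkb2, beside 8.23% of all 27025 genes with a promoter sequence. Rela, Bcl3 and Il1b held none in these windows. A match is a string of letters and not a measured site of binding. The feedback genes were chosen as genes that NF-kB switches on, so the count of 4 describes the set and tests nothing. Nfkb2 and Tnfaip3 were searched at more than 1 annotated start. The 100 bases before the start of Nfkbia (chr12:55492648-55492747) and Tnfaip3 (chr10:19015411-19015510) are shown because they belong to the feedback inhibitors compared here, both on the minus strand and read 5′ to 3′ toward the gene, with the matches in capitals. The window of Nfkbia lies outside all genes annotated by GENCODE, and that of Tnfaip3 lies outside all exons but within the span that GENCODE gives the gene. The match in Nfkbia begins 29 bases before the start and the one shown in Tnfaip3 12 bases before it, and Tnfaip3 holds another that begins 125 bases before it.
Nfkbia: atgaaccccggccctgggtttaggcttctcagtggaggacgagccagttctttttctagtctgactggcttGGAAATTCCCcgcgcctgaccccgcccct
Tnfaip3: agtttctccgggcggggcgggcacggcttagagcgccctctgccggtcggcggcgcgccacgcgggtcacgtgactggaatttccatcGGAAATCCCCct

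The subunit genes Rel and Nfkb2 also carried matches, and only short sites with their flanks are given. The site of Rel (chr11:23771045-23771067, minus strand) begins 92 bases before the start and lies outside annotated exons. Those shown of Nfkb2 (chr19:46304692-46304714 and chr19:46304720-46304736, plus strand) begin 39 and 11 bases before the start and overlap annotated exons of Nfkb2 and of AC114539.1. Nfkb2 has 2 further sites, which begin 236 and 225 bases before 2 other annotated starts and are not shown. In Rel and in the upstream site of Nfkb2 the capitals hold 11 letters, since 2 matches overlap there.
Rel: agcagcGGGAAATCCCCccccct
Nfkb2, upstream site: cgtcacGGGAATTCCCCccctcg
Nfkb2, site next to the start: ccgaaaGGGGCTTTCCc

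PHZ SP HSC were then set against control BM HSC. None of the 9 tested members passed the threshold by limma, and voom on reads worked back from the FPKM values also called 0. Over all genes tested 0.758% passed. At an unadjusted p below 0.05 stood 1 of the 9, Relb, beside 15.8% of all genes. In Relb and Nfkb2, the subunits of the alternative pathway, both spleen libraries lay above all control libraries, beside 15.2% of all genes. Relb was at 5.22 and 4.22 FPKM in the spleen libraries, and its log2 fold change of 0.65 ± 0.26 (SE, 95% interval 0.08 to 1.23) had an adjusted p of 0.253 by limma. Nfkb2 was at 4.25 and 4.61 FPKM, a log2 fold change of 0.35 (95% interval -0.22 to 0.92). The median log2 fold change was 0.28 over the 9 members and -0.0012 over all genes tested.

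The feedback genes split the pair of spleen libraries. Nfkbiz was at 7.21 FPKM in spleen replicate 1, within the range of PHZ BM HSC, and at 3.15 FPKM in replicate 2, within the range of the controls, from 403 and 164 reads. Nfkbia was at 88.9 and 65.7 FPKM and Bcl3 at 3.73 and 2.42 FPKM, again with replicate 1 at a level of PHZ BM HSC and replicate 2 below the highest control. Tnfaip3, at 1.04 and 2.08 FPKM, had the opposite order. The log2 fold changes against control BM HSC were 0.59 for Nfkbiz (95% interval -0.10 to 1.27) and 0.28 for Nfkbia (95% interval -0.10 to 0.67). Rela was at 17.3 and 20.6 FPKM, between control replicates 1 and 3, with a log2 fold change of 0.44 (95% interval -0.17 to 1.05). Rel at 2.36 and 3.12 FPKM and Nfkb1 at 11.2 and 14.4 FPKM overlapped the controls, with log2 fold changes of -0.01 and -0.14.

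PHZ SP HSC against PHZ BM HSC compares both tissues of treated mice, and the comparison uses the libraries of both preceding ones. No member passed the threshold by limma and 0 by voom, beside 0.978% of all genes by limma. At an unadjusted p below 0.05 stood 1 of the 9, Relb, beside 13.5% of all genes. Relb was also the only member with both spleen libraries above all PHZ BM HSC libraries, beside 17.5% of all genes, at a log2 fold change of 0.57 (95% interval 0.0015 to 1.15, adjusted p of 0.369 by limma). Rela and Nfkb1 lay lower in both spleen libraries than in every PHZ BM HSC library, beside 17.4% of all genes, with log2 fold changes of -0.55 (95% interval -1.16 to 0.06) and -0.33 (95% interval -0.80 to 0.15). For Nfkbiz the log2 fold change was -0.67 (95% interval -1.36 to 0.01), and spleen replicate 1 lay inside the range of PHZ BM HSC. The median was -0.25 over the 9 members and -0.02 over all genes tested. In the spleen the subunit sum was 40.3 and 46.9 FPKM, below every PHZ BM HSC library. Relb made up 12.9% and 8.99% of it, against 3.90% to 6.55% in PHZ BM HSC and 6.49% to 7.81% in the controls, and the share of Rela was 42.8% and 43.9%.

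**Figure D2:**
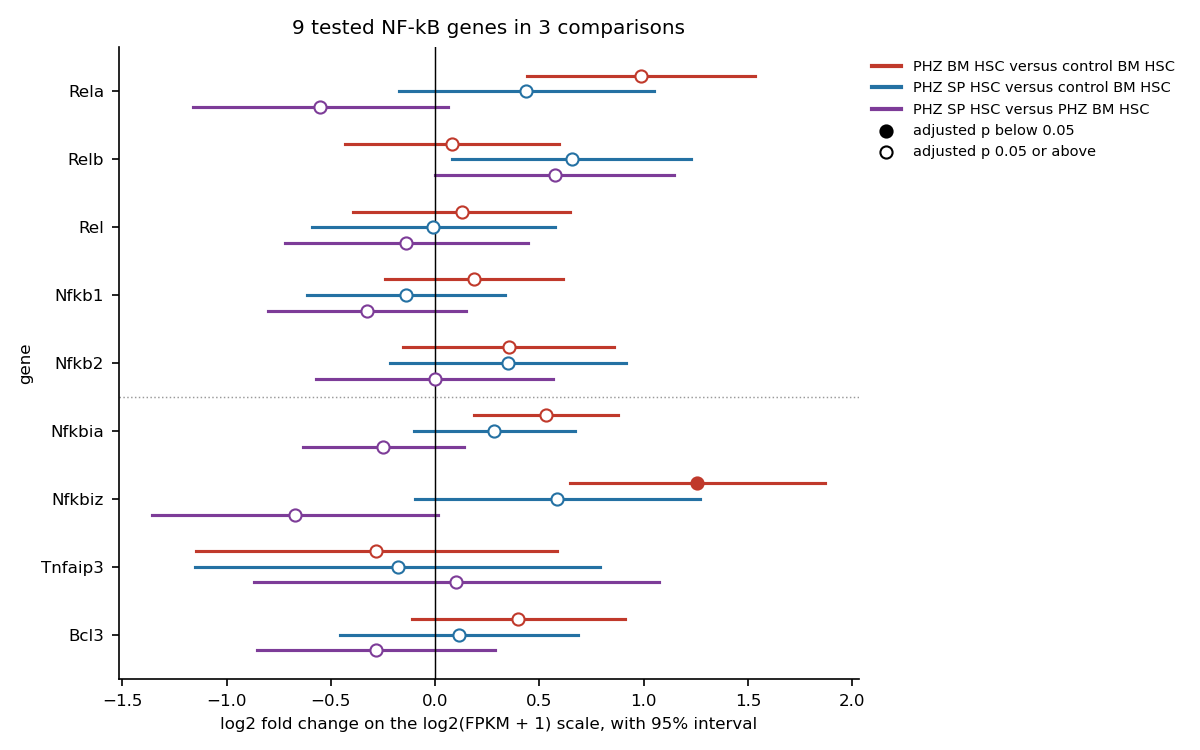
Log2 fold change on the log2(FPKM + 1) scale of the 9 tested genes, subunits above the dotted line and feedback genes below it, in the 3 comparisons (red, blue and purple). Lines are 95% intervals of the limma fit, and filled points passed an adjusted p of 0.05. The only filled point is Nfkbiz in PHZ BM HSC versus control BM HSC, at 1.26.

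Il1b encodes interleukin-1 beta, a cytokine that both induces and is induced by NF-kB (chr2:129364569-129371164). It did not pass the filter on low values. Its libraries held 0, 0 and 6 reads in control BM HSC, 1, 6 and 12 in PHZ BM HSC and 3 and 41 in PHZ SP HSC. In FPKM these were 0, 0 and 0.246, then 0.0502, 0.336 and 0.488, then 0.141 and 2.07. A count of 0 allows up to 3 reads, or 0.162 and 0.175 FPKM in control replicates 1 and 2, as far as counting error goes. The groups overlapped, and spleen replicate 2 alone exceeded 1 FPKM. Fitted with no filter, the log2 fold changes were 0.25, 0.80 and 0.55 in the 3 comparisons, with adjusted p of 0.829, 0.378 and 0.586 by limma. The gene Il1bos has exons on the opposite strand over those of Il1b, and without a stated strand setting the reads of the pair cannot be told apart. In the same way Nfkb2 shares exonic sequence with Psd and AC114539.1, and Bcl3 with Gm16175, all on the opposite strand.

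The other genes of the pathway were taken from lists by role, 121 genes of which 111 were in all 3 tables and 96 were tested. In PHZ BM HSC against control BM HSC 5 of the 96 passed the threshold, all higher, beside 2.74% of all genes. At an unadjusted p below 0.05 stood 23, of which 18 were higher and 5 lower, beside 16.6% of all genes. Zfp36, whose product tristetraprolin speeds the decay of cytokine mRNAs, was at 10.1, 11.1 and 9.17 FPKM in the control libraries and at 119.6, 120.0 and 92.8 FPKM in PHZ BM HSC. Its log2 fold change of 3.33 ± 0.18 (SE) had an adjusted p of 4.26e-06 by limma. The others were classical targets. Ccl3 and Ccl4, the chemokines MIP-1 alpha and beta, changed by 3.22 and 1.74 on the log2 scale, with adjusted p of 0.0033 and 0.00847 by limma. Ccl3 was at 1.07, 3.77 and 4.89 FPKM in the controls and at 48.3, 50.6 and 17.5 FPKM in PHZ BM HSC. Ccl4 was at 38.1, 33.5 and 28.5 FPKM against 145.3, 155.2 and 64.4 FPKM. In both, PHZ BM HSC replicate 3 was the lowest of its group and still above every control.

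Ier3, an early response gene with a part in cell survival, was at 57.4, 33.3 and 36.9 FPKM in the controls and at 128.6, 133.5 and 188.1 FPKM in PHZ BM HSC, a log2 fold change of 1.82 with an adjusted p of 0.00288 by limma. Pim1, a survival kinase, was at 7.66, 8.94 and 10.2 FPKM against 17.1, 18.7 and 30.1 FPKM, a log2 fold change of 1.18 with an adjusted p of 0.0338 by limma. Ccl3 did not pass by voom (adjusted p of 0.0605), and Pim1 lost its call in 8 of 17 alternatives, among them leaving out any of the 6 marrow libraries. Opposite-strand genes have exons over Zfp36 and Pim1.

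The machinery upstream of NF-kB gave no call by limma or voom in any comparison. None of the 7 other IkB-related genes passed, nor of the 18 kinases, 17 adaptors and TRAF ligases, 11 receptors and 4 ligands tested. At an unadjusted p below 0.05 stood 1, 2, 2, 4 and 1 of them in PHZ BM HSC against control BM HSC, 0, 4, 2, 3 and 0 in the spleen against control BM HSC, and 0, 2, 0, 2 and 0 in the spleen against PHZ BM HSC. The shares over all genes were 16.6%, 15.8% and 13.5%. Of the IKK subunits, Ikbkb was at 2.99 to 3.75 FPKM in the controls, 3.41 to 3.98 FPKM in PHZ BM HSC and 4.79 to 4.91 FPKM in the spleen. Ikbkg, the regulatory subunit, was at 3.03 to 4.19, 3.61 to 4.94 and 3.06 to 4.06 FPKM. Chuk, which encodes IKK-alpha and drives the alternative pathway, was at 2.44 to 4.14, 2.33 to 3.70 and 4.55 to 6.25 FPKM. For Chuk and Ikbkb both spleen libraries lay above all 6 marrow libraries. The same held for Irak4, a kinase of interleukin-1 and Toll-like receptor signaling, at 2.52 to 4.18, 3.87 to 4.70 and 6.53 to 7.33 FPKM. Its log2 fold change against control BM HSC was 0.84, with an adjusted p of 0.149 by limma. Map3k7, which encodes the IKK-activating kinase TAK1, lay below all 6 marrow libraries in both spleen libraries, at 1.83 to 4.55, 1.40 to 2.44 and 1.006 to 1.25 FPKM (log2 fold change against control BM HSC -0.94, adjusted p of 0.198 by limma). Over the 18 kinases, both spleen libraries lay above all controls for 4 and below them for 3, beside 15.2% and 13.7% of all genes, and above all PHZ BM HSC libraries for 4 and below them for 2, beside 17.5% and 17.4%. The share of all genes beyond all 6 marrow libraries at once was not counted. Irak4 and Map3k7 were named after their values were seen. For Chuk and Ikbkb the log2 fold changes against control BM HSC of 0.51 and 0.43 had adjusted p of 0.415 and 0.401 by limma.

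The cytoplasmic inhibitor genes Nfkbib and Nfkbie and the nuclear Nfkbid stayed short of the threshold as well. Nfkbib was at 4.60 to 8.89 FPKM in the controls and at 11.3 to 13.1 FPKM in PHZ BM HSC, and its log2 fold change of 0.71 had an adjusted p of 0.239 by limma. Nfkbie was at 3.47 to 7.61 FPKM against 5.73 to 8.86 FPKM and Nfkbid at 2.89 to 6.82 FPKM against 4.28 to 4.92 FPKM, and the groups of both overlapped. In the spleen libraries Nfkbib was at 14.6 and 7.16 FPKM, again with replicate 1 above replicate 2. Among the inducing cytokines, Tnf was at 0 to 0.689 FPKM in the controls, 0 to 1.42 FPKM in PHZ BM HSC and 2.63 and 0.471 FPKM in the spleen, from at most 48 reads. Il1a was listed at 0 in all 3 control libraries, which allows up to 0.237 to 0.337 FPKM, and reached 15 reads and 1.36 FPKM in spleen replicate 1.

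Between the spleen and the controls Zfp36 was the 1 pathway gene of 96 past the threshold, beside 0.758% of all genes. It was at 39.1 and 28.7 FPKM in the spleen libraries, a log2 fold change of 1.64 with an adjusted p of 0.00376 by limma. Without spleen replicate 1 its adjusted p was 0.083 by limma. Against PHZ BM HSC 2 of the 96, beside 0.978% of all genes, Zfp36 and Ier3, were lower in the spleen, by log2 fold changes of -1.69 (adjusted p of 0.00416 by limma) and -1.51 (0.0267). Without spleen replicate 2 the adjusted p of Zfp36 was 0.05275 by limma. Ier3 was at 41.2 and 63.8 FPKM in the spleen, overlapping the controls, and lost its call in 7 of 17 alternatives, among them leaving out either spleen library or PHZ BM HSC replicate 1 or 2. Ccl3 at 6.56 and 7.55 FPKM and Ccl4 at 47.2 and 35.9 FPKM lay below every PHZ BM HSC library, with log2 fold changes of -2.17 and -1.44 and adjusted p of 0.0678 and 0.0672 by limma.

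**Figure D3:**
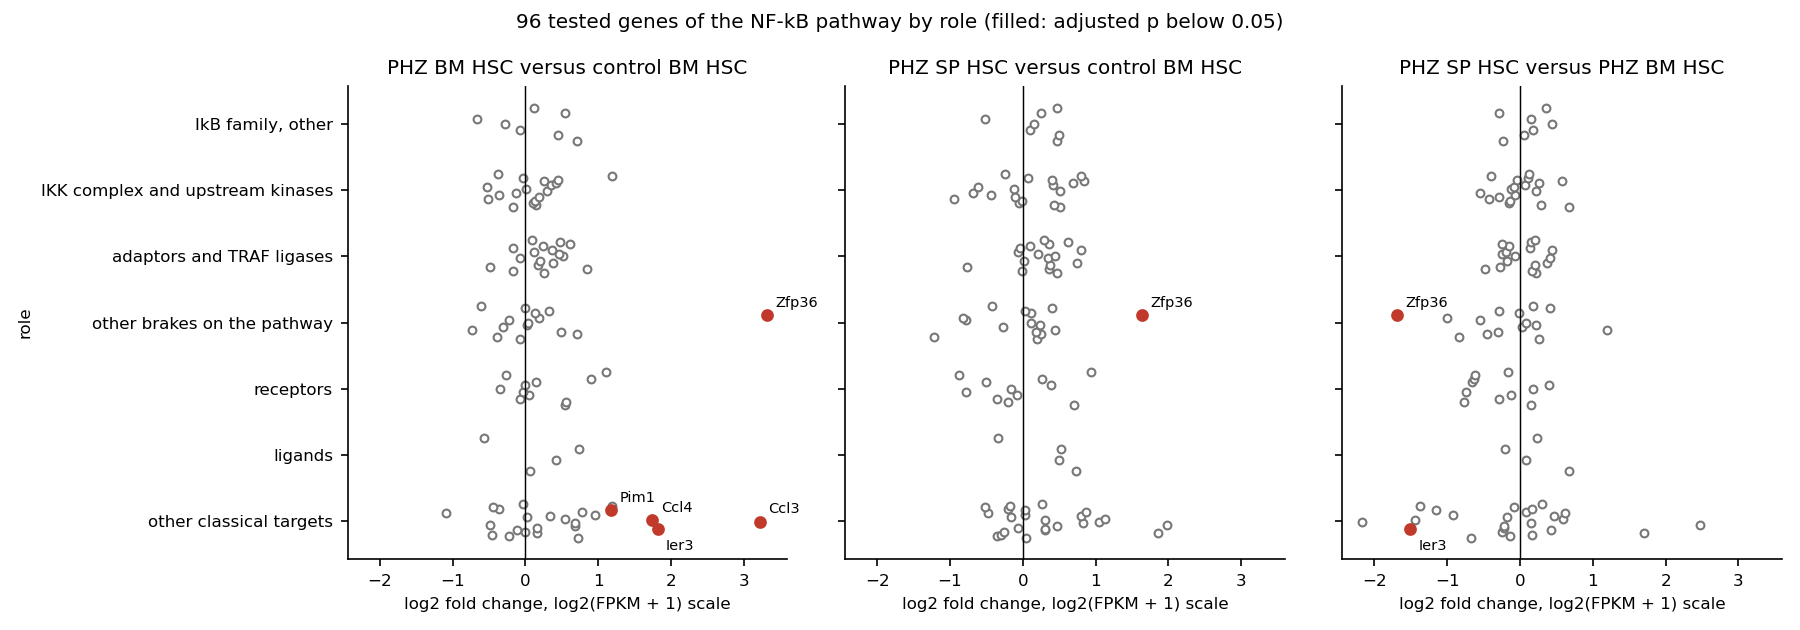
Log2 fold change on the log2(FPKM + 1) scale of the 96 tested pathway genes, by role, 1 panel per comparison. Filled red points passed an adjusted p of 0.05 (5, 1 and 2 genes from left to right) and are named, and open points did not.

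Genes of other programs moved in the same libraries. Of 17 immediate early genes, which many stimuli and the handling of cells switch on, the summed level was 121.5 to 152.4 FPKM in control BM HSC, 880.6 to 1094 FPKM in PHZ BM HSC and 317.8 to 346.2 FPKM in PHZ SP HSC. Zfp36 was itself on that list. Of the 14 tested, 11 rose in PHZ BM HSC against control BM HSC, 5 rose in the spleen against control BM HSC (Zfp36, Fos, Jun, Junb and Klf6) and 7 fell in the spleen against PHZ BM HSC, beside 2.74%, 0.758% and 0.978% of all genes. Atf3 and Hspa1a of the list were at 0 in all control libraries.

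Markers of mature myeloid cells, which make much NF-kB target mRNA, had another pattern. The summed level of 12 neutrophil markers was 456.8 to 763.4 FPKM in control BM HSC, 533.2 to 1121 FPKM in PHZ BM HSC and 1474 to 1892 FPKM in PHZ SP HSC, and that of 15 monocyte and macrophage markers was 255.9 to 295.0, 205.8 to 263.9 and 354.0 to 361.9 FPKM. Lyz2 made up most of the latter sum. Cd68 was at 0, 4.59 and 8.51 FPKM in the controls, 4.95, 9.77 and 16.8 FPKM in PHZ BM HSC and 34.5 and 57.8 FPKM in the spleen, with a log2 fold change of 3.60 between spleen and control (adjusted p of 0.0582 by limma). C1qb, a complement component of macrophages, went the other way, at 0.189, 2.65 and 2.94 FPKM in the controls and 0.616, 3.53 and 1.57 FPKM in PHZ BM HSC. In the spleen it was at 0.0825 and 0 FPKM, from 1 and 0 reads. Mpeg1 and Cx3cr1, too low to be tested, lay higher in both spleen libraries than in every marrow library. Mpeg1 was at 0.807 and 1.65 FPKM in the spleen and at most 0.641 FPKM in marrow. Cx3cr1 was at 0.498 and 0.235 FPKM against at most 0.103 FPKM. Adgre1 and Csf1r, which define macrophages, were at 0 to 0.288 and 0.0185 to 0.569 FPKM over the 8 libraries. In a library 1 to 5 of the 15 markers were at 0, Marco in every marrow library but not in the spleen (0.606 and 0.200 FPKM). Of the 12 neutrophil markers, all tested, Prtn3 rose in PHZ BM HSC against control BM HSC, where 2 stood higher and 2 lower at an unadjusted p below 0.05. In the spleen S100a8 and Retnlg rose against control BM HSC, with 6 of 12 higher at an unadjusted p below 0.05, and S100a8 rose against PHZ BM HSC, with 7 higher and 2 lower. The shares of all genes called were 2.74%, 0.758% and 0.978%, and those at an unadjusted p below 0.05 were 16.6%, 15.8% and 13.5%. Of the 8 monocyte and macrophage markers tested, 0 passed the threshold by limma in each of the 3 comparisons. At an unadjusted p below 0.05 stood 0 of them between the marrow groups, 3 between spleen and control (Cd68 and Ly6c2 higher, C1qb lower) and 3 between spleen and PHZ BM HSC (Cd68 and Lyz2 higher, C1qb lower). Spleen replicate 2, with the most Il1b, also had the highest neutrophil sum, whereas Tnf and Il1a were highest in spleen replicate 1. S100a8 and S100a9 made up most of the neutrophil sum there, at 588.5 and 536.8 FPKM in spleen replicate 1 and 788.8 and 628.9 FPKM in replicate 2. The part of the immediate early genes or of the myeloid markers in the levels of the NF-kB genes was not tested. Over erythroid markers (8 genes) the sum was 125.0 to 294.3, 182.0 to 341.5 and 1014 to 1161 FPKM in the 3 groups, over B cell markers (8 genes) 27.7 to 50.8, 28.8 to 31.4 and 39.6 to 54.8 FPKM, and over T and NK cell markers (11 genes) 21.9 to 61.7, 31.9 to 50.7 and 44.1 to 54.5 FPKM. Of the 8 erythroid markers, all tested, 0 passed the threshold between the marrow groups by limma, with 1 higher at an unadjusted p below 0.05. In the spleen 5 of the 8 rose against control BM HSC (Klf1, Hbb-bt, Hba-a1 and Slc4a1 among them) and 2 against PHZ BM HSC (Hbb-bt and Slc4a1), and 7 were higher at an unadjusted p below 0.05 in each. Globin genes have near-identical copies, so the split of reads among them is uncertain. Of the 2 T and NK cell markers tested, Klrb1c, which encodes an NK cell receptor, rose in the spleen against both marrow groups, and 0 passed between the marrow groups by limma, where Klrb1c alone was higher at an unadjusted p below 0.05. Klrb1c was at 1.40, 0.894 and 0.556 FPKM in the controls, 2.31, 3.08 and 2.36 FPKM in PHZ BM HSC and 14.8 and 18.5 FPKM in the spleen. Nkg7, the other one tested, did not pass and overlapped between the groups. It was at 19.2 to 59.9 FPKM in the controls, 27.8 to 45.9 FPKM in PHZ BM HSC and 27.0 and 28.0 FPKM in the spleen. Of the 3 B cell markers tested, 0 passed the threshold by limma in each comparison, with 0 at an unadjusted p below 0.05 between the marrow groups and 2 higher in the spleen against each marrow group. The immediate early genes and cell type markers named here were chosen after their values were seen, and the part of the erythroid and lymphoid markers in the levels of the NF-kB genes was not tested.

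**Figure D4:**
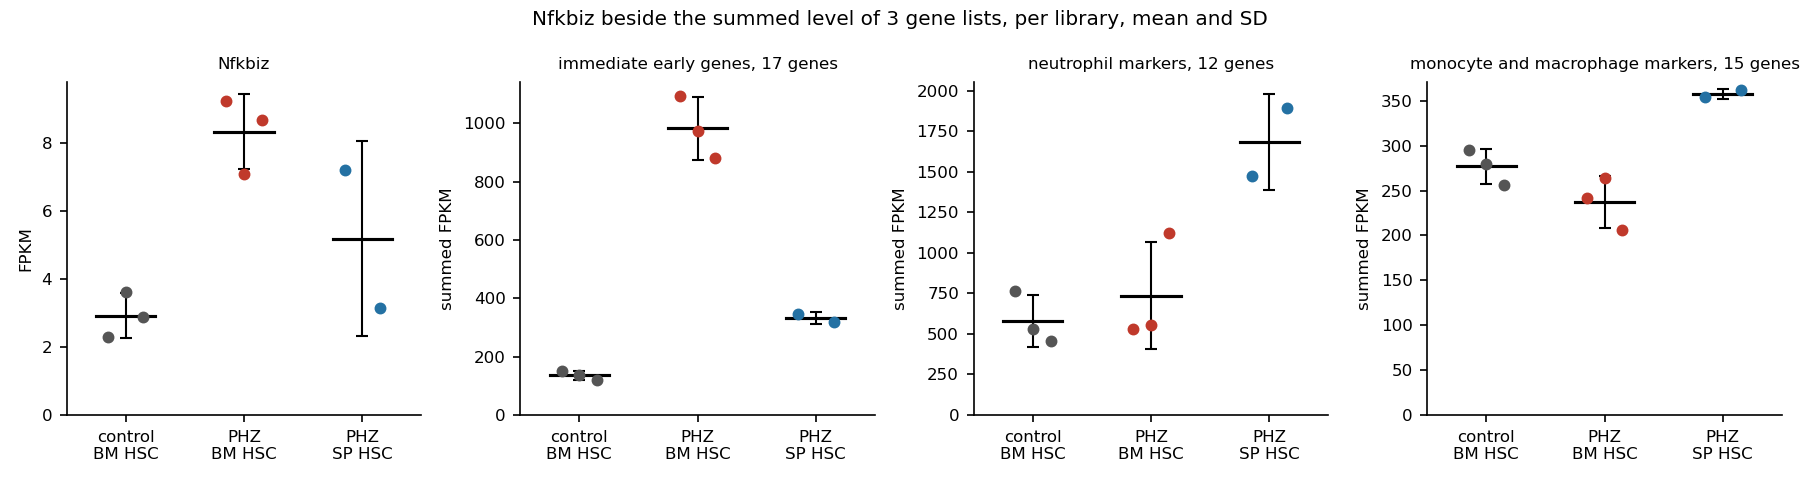
Level of Nfkbiz (FPKM) beside the summed level (FPKM) of 17 immediate early genes, 12 neutrophil markers and 15 monocyte and macrophage markers, per library and on linear axes. Points are libraries, bars the mean and error bars 1 SD (control BM HSC gray, n = 3; PHZ BM HSC red, n = 3; PHZ SP HSC blue, n = 2). The immediate early genes are highest in PHZ BM HSC and both sets of myeloid markers in PHZ SP HSC.

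The genes whose pattern was most like that of Nfkbiz were taken by the correlation of log2(FPKM + 1) over the 8 libraries, among all tested genes. These were Rtkn (Pearson r = 0.996), Srsf5, a splicing factor (0.9765), and Ppcdc, an enzyme of coenzyme A synthesis (0.970). Srsf5 was at 68.2 to 78.2 FPKM in the controls, 117.4 to 126.7 FPKM in PHZ BM HSC and 104.3 and 82.3 FPKM in spleen replicates 1 and 2. Ppcdc was at 7.45 to 9.76, 14.1 to 18.9 and 16.3 and 7.89 FPKM. The correlations are a description over libraries that share their depth and scaling, and the best of many genes was taken.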

How the data were processed

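RNA of sorted HSCs was amplified by SMART-Seq2 and made into Nextera XT libraries without molecular identifiers. Limits given in reads therefore hold for counting error alone. The authors mapped reads to mm10 with STAR and used DESeq2, and deposited FPKM values in a table per group. The gene counter, annotation and strand setting are not given in the sources used here. The marrow columns are named WBM and were taken as the BM HSC samples of the titles. Tables of the authors' own DESeq2 comparisons (fold changes and p-values) were not used.

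All 110442 FPKM values above 0 came out as whole reads (tolerance 0.02 reads). Median-of-ratios factors over all PHZ libraries matched the scaling of both PHZ tables. Those over the control and spleen libraries matched the control table, so the control table had been scaled apart from the PHZ tables. Values were put on 1 set of median-of-ratios factors over the 8 libraries, a shift of at most 1.2%. Depth was 8219964 to 13206522 reads per library, which limits low genes. The test was limma 3.58.1 (R 4.3.3, trend and robust options) on log2(FPKM + 1), all 8 libraries in 1 fit with group as the factor, two-sided, with Benjamini-Hochberg adjustment over the 11351 genes that reached 1 FPKM in at least 2 libraries. A fold change on this scale understates the change of low genes. The script was tested on simulated data. Alternatives were a pseudocount of 0.1, other filters and scalings, voom on the recovered reads, only the groups compared, a replicate block, averaging PHZ BM HSC replicates 1 and 2, and leaving out each library. The labels name no batch. Groups and numbers came from the sample titles.

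The 10 genes and all lists were chosen with earlier results of these data known. Named were all 10 genes, pathway genes past the threshold (up to 12 per comparison), Tnf, Il1a, Ikbkb, Ikbkg, Chuk, Nfkbib, Nfkbie and Nfkbid whatever their values, and the 3 genes most correlated with each member past the threshold. Irak4 and Map3k7 were named outside this rule, because both spleen libraries lay beyond every marrow library. Gene symbols and coordinates came from RefSeq by Entrez ID, and exon overlaps from GENCODE vM21. B cell, T and NK cell and erythroid marker lists were also summed. Python 3.11.15 with numpy 2.4.6, pandas 2.3.3, scipy 1.17.1 and matplotlib 3.10.9 was used.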

Additional observations from a re-analysis of the deposited data

How the results depend on the processing

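Of 456 alternative values for the 27 fold changes of the 9 tested genes, 428 kept their direction and side of the threshold. In the marrow comparison (PHZ BM HSC to control BM HSC) Nfkbiz kept its direction in all 17 alternatives and its call in 8 (log2 fold change 1.14 to 1.54, adjusted p 0.0197 to 0.166 by limma). The number of members called there was 1, and 0 with no filter, with the replicate block and with PHZ BM HSC replicates 1 and 2 averaged, 2 (Nfkbiz and Rela) where every library had to reach 1 FPKM, and 0 to 1 with a library left out. Rela passed with that filter and without control replicate 3. In both spleen comparisons the count was 0 throughout. Other pathway genes called numbered 4 to 6 in the marrow comparison. Between spleen and control they numbered 0 to 2 with a library left out. Between spleen and PHZ BM HSC they numbered 0 to 4 with a library left out, 1 with no filter, 4 with the strict filter, 5 within the groups compared and 1 with the averaged replicates.

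Values that changed sign were small and uncalled. Leaving out a library gave ranges across 0 in the marrow comparison for Relb (-0.0277 to 0.21) and Tnfaip3 (-0.59 to 0.11). Between spleen and control it did so for Rel (-0.16 to 0.14), Nfkb1 (-0.31 to 0.0252), Tnfaip3 (-0.48 to 0.12) and Bcl3 (-0.12 to 0.35). Between spleen and PHZ BM HSC it did so for Rel (-0.29 to 0.0114), Nfkb2 (-0.13 to 0.10) and Tnfaip3 (-0.29 to 0.41), where Nfkb2 was also 0.02 by voom and 0.0582 with the averaged replicates, and Tnfaip3 was -0.0732 with the replicate block. Tnfaip3 had no value under the strict filter. All genes called numbered 311, 86 and 111 in the 3 comparisons as reported, and over the 17 alternatives 114 to 335 in the marrow comparison, 14 to 83 between spleen and control and 5 to 157 between spleen and PHZ BM HSC. Without a spleen library the lone one is assumed to vary like the other groups. The causes of these shifts were not tested.

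The deviations of same-numbered libraries correlated at -0.008 to 0.060 over 7 pairs, so no pairing by replicate number was seen. Most of these pairs set control against PHZ mice, which cannot share an animal. Only same-numbered PHZ BM HSC and PHZ SP HSC libraries could share a mouse, and they correlated at 0.0284 and 0.0076. The spleen deviations mirror each other, so these values cannot decide whether marrow and spleen came from the same mice. With the replicate block Nfkbiz had the same fold change, 1.26, and an adjusted p of 0.0588 by limma, and Ier3 lost its call between spleen and PHZ BM HSC. Il1b and Il1a, at no more than 41 and 15 reads in a library, are limited by depth.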
